A study of Mus musculus with 35 samples.

Results

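The comparison described here asks which protein-coding genes carried more or fewer ribosome footprints in mouse leukemia cells after the animals were fed a diet without branched-chain amino acids (BCAA) and given the chemotherapy called 5+3. Its members are the protein-coding genes of the ribosome footprint counts, read in the leukemias that carried the control guide sgScramble. Of 55487 genes listed, 21974 were protein-coding; 19885 of these had at least 1 count in the 7 sgScramble footprint libraries, and 11386 passed the filter on low counts and were tested. The 7 libraries are part of 12 footprint libraries and of 35 samples in all, the other 23 being RNA libraries.

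The cells were MLL-AF9 leukemia cells, a mouse acute myeloid leukemia driven by a fusion of the genes Kmt2a and Mllt3. Cells taken from a terminally ill mouse were grown ex vivo, and cells carrying 1 of the guides were injected into male recipients of 8 to 10 weeks; the labels describe the same expansion for all groups. The 4 treated mice (replicates 1, 2, 3 and 5) received the BCAA-free diet and 5+3, meaning 5 daily doses of 100 mg/kg cytarabine, the first 3 of them together with 3 mg/kg doxorubicin. The 3 vehicle mice (replicates 2, 3 and 5) received a standard amino acid (AA) diet and phosphate-buffered saline. GFP-positive cells were sorted from the bone marrow of 1 mouse per library at the time of maximum response. Diet and drugs were changed together, so their parts in any difference cannot be told apart. The same replicate number marks the RNA and the footprints of 1 mouse, because 2 µl of each 20 µl lysate went to a Smart-seq2 RNA library and the rest to footprints. Leukemias with a guide against Ogfod1 formed the other groups, with 3 vehicle and 2 treated mice in the footprints.

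A ribosome covers a short stretch of the mRNA it translates, and that stretch survives when RNase I digests the rest. Counting the protected fragments per gene therefore gives an amount that depends both on how much mRNA there is and on how many ribosomes sit on it. Leucine, isoleucine and valine cannot be made by mammalian cells. When they are scarce, uncharged tRNA activates the kinase Gcn2 and raises translation of the transcription factor Atf4, while the kinase complex mTORC1, which favours translation of mRNAs for ribosomal proteins and translation factors, is restrained. Cytarabine and doxorubicin damage DNA and activate the transcription factor p53. Acute myeloid leukemia cells are arrested on the way to monocytes and granulocytes, and genes of those lineages can change as the cells mature.

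The 7 libraries held 7644456 to 10100483 counts, of which 3907342 to 5358782 fell in protein-coding genes. Levels are CPM (counts of a gene scaled to the protein-coding total of its library, after TMM normalization). The first principal component, 33.6% of the variance, separated treated from vehicle libraries. Protein-coding genes took 53.7% to 56.6% of the counts in vehicle and 47.8% to 51.2% in treated libraries. Ogfod1, the target of the other guide, was at 24.9, 26.4 and 28.5 CPM in vehicle and at 27.8, 29.5, 23.7 and 34.2 CPM in treated sgScramble mice, against 2.81 to 5.59 CPM in the sgOgfod1 leukemias. In sgScramble its log2 fold change was 0.11 ± 0.18 (SE; adjusted p = 0.707), and the groups overlapped. All fold changes below are log2 values, treated against vehicle, with their standard error, and "called" means an adjusted p under 0.05 over the 18101 genes of all kinds tested.

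The treatment was accompanied by higher footprints for 1051 protein-coding genes (9.23%) and lower footprints for 856 (7.52%), so that 16.7% of the genes tested were called. Of these, 298 rose and 218 fell by more than 1 on the log2 scale, that is, by more than 2-fold. When all genes of the table set the scale, in place of protein-coding genes alone, 715 were called higher and 1178 lower, and the median protein-coding gene sat at -0.08. The counts depended on the small vehicle group. They were 557 and 490 without vehicle mouse 2, 496 and 422 without vehicle mouse 3, and 639 and 583 without vehicle mouse 5. A fit of only the 7 sgScramble libraries called more genes, 1281 higher and 1089 lower among 10736 tested. That fit kept 1843 of the 1907 genes called in the comparison. A term for library numbers from 17 up, which hold treated mice 3 and 5, left 608 and 410. Treated sgScramble was the only group with libraries on both sides of that number. With this term, here and below, the comparison therefore sets treated mice 1 and 2 against vehicle. An effect of library number cannot be told apart from a difference among the treated mice.

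**Figure D1:**
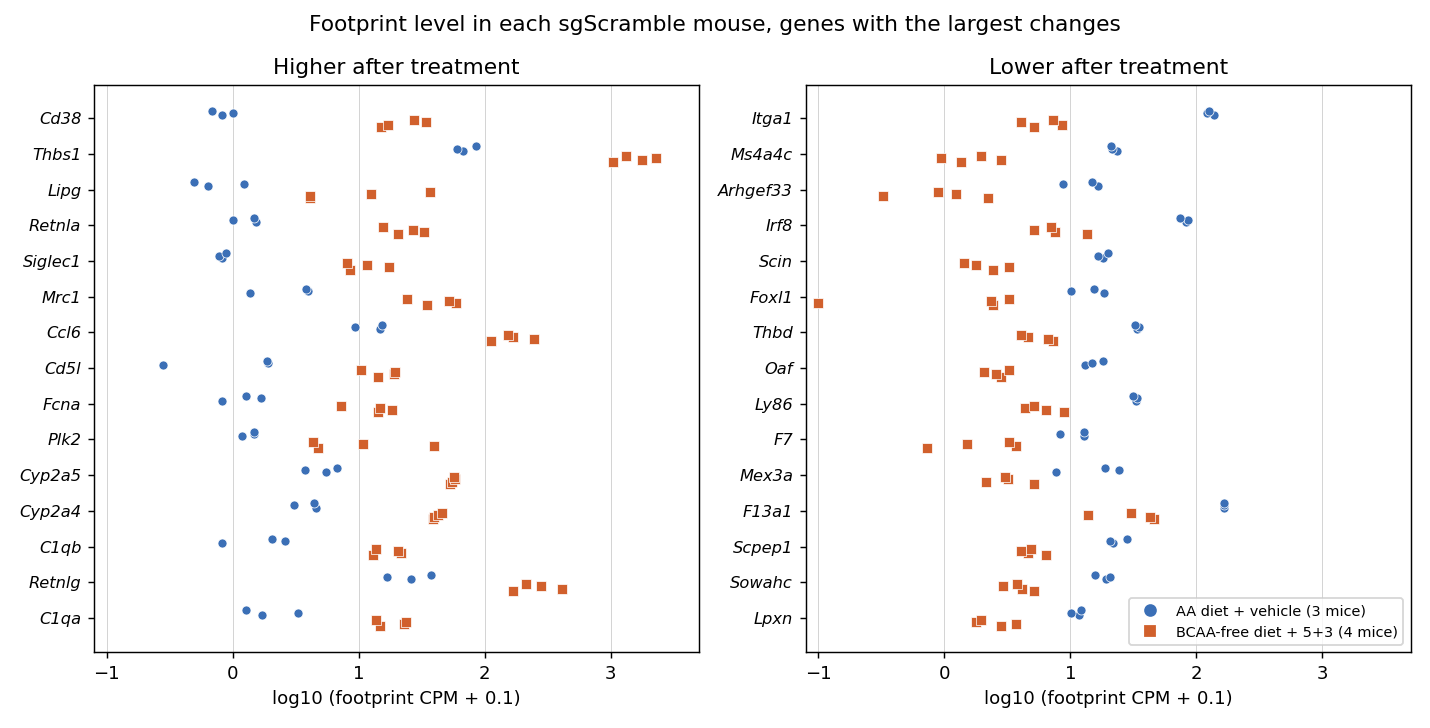
Footprint level of each sgScramble mouse for the 15 genes with the largest rise (left) and the 15 with the largest fall (right) among called genes whose groups do not overlap and that reach 10 CPM in the higher group. Each point is 1 mouse, blue circles for vehicle and orange squares for treated mice, on a log10 axis of CPM + 0.1; Thbs1 runs from 60.1 to 85.8 CPM in vehicle and from 1046 to 2310 CPM in treated mice, and Itga1 goes the other way.

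The largest rise was that of Cd38, the cell surface enzyme that consumes NAD (chr5:43868553-43912375, GRCm38). Its footprints were at 0.721, 0.910 and 0.586 CPM in the vehicle mice and at 15.0, 17.1, 33.9 and 27.6 CPM in the treated mice (log2 fold change 4.94 ± 0.43, adjusted p = 3.5e-05). Thbs1, which encodes the matrix glycoprotein thrombospondin 1 (chr2:118111876-118127133), went from 67.4, 60.1 and 85.8 CPM to 1046, 1776, 2310 and 1323 CPM (4.50 ± 0.32, adjusted p = 7.0e-05). In both genes the lowest treated mouse lay well above the highest vehicle mouse. Lipg, endothelial lipase, and Plk2, a p53-induced kinase, were called with wide spread: Lipg stood at 4.00, 4.05, 12.4 and 37.1 CPM in the treated mice (4.34 ± 1.16, adjusted p = 0.0355), and Plk2 at 4.64, 39.8, 10.7 and 4.24 CPM (3.54 ± 0.93, adjusted p = 0.0309). Both lost the call when any vehicle mouse was left out. Cyp2a5 and Cyp2a4 rose by 3.39 and 3.38, but they are near-identical copies that can share reads. Cyp2a5 went from 3.64 to 6.65 CPM in vehicle up to 53.1 to 57.6 CPM in treated mice. In fits that kept the sgOgfod1 libraries, both calls were lost when any of the 7 mice was left out. Both were kept in a fit of only the 7 sgScramble libraries.

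Most other genes among the 15 largest rises are known from macrophages and granulocytes. Mrc1, the mannose receptor, was at 1.26, 3.87 and 3.71 CPM in vehicle and at 34.8, 59.1, 51.9 and 24.1 CPM in treated mice (3.87 ± 0.48, adjusted p = 0.00085). Siglec1, the sialic acid receptor of tissue macrophages, went from 0.683 to 0.782 CPM up to 7.95 to 17.3 CPM (3.91 ± 0.41). C1qa and C1qb, chains of the first complement component, rose by 3.24 and 3.33, Cd5l, a secreted macrophage protein, by 3.68, and Fcna, a ficolin, by 3.56. Retnla and Retnlg, small secreted proteins of alternatively activated macrophages and of granulocytes, rose by 4.22 and 3.32, and the chemokine Ccl6 by 3.69, with treated levels of 111.7, 246.4, 168.7 and 154.4 CPM against 14.6, 9.33 and 15.3 CPM.

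The largest fall was that of Itga1, the collagen-binding integrin subunit (chr13:114953096-115101964), from 137.9, 121.1 and 127.1 CPM to 5.06, 8.54, 3.95 and 7.15 CPM (-4.37 ± 0.51, adjusted p = 0.0011). Genes of the monocyte path stood beside it. Irf8, the transcription factor that directs progenitors to monocytes, fell from 82.2, 86.3 and 74.3 CPM to 13.5, 7.42, 5.08 and 6.89 CPM (-3.26 ± 0.51). Ms4a4c, a membrane protein of monocytes, fell by 3.68, Ly86, the partner of an innate immune receptor, by 2.39, and F13a1, coagulation factor XIII, by 2.30, from 166 to 167 CPM in vehicle to 13.8 to 45.9 CPM in treated mice. Thbd and F7, thrombomodulin and coagulation factor VII, fell by 2.58 and 2.35. Scin, an actin-severing protein, was called at -3.06, from 16.6 to 19.7 CPM in vehicle down to 1.32 to 3.15 CPM in treated mice. In fits that kept the sgOgfod1 libraries it lost the call when any of the 7 mice was left out. It kept the call in a fit of only the 7 sgScramble libraries.

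Marker lists of mature cells moved with these genes. Of 32 neutrophil and granulocyte genes tested, 20 were called higher and 1 lower, with a median log2 fold change of 1.35. Summed over the list, their footprints took 32500, 33530 and 35380 CPM in vehicle and 71680, 103400, 125300 and 87660 CPM in treated mice, so the groups did not overlap. Elane, a primary granule protease made early in granulocyte development, was among the genes called higher, at 0.60. Of 16 tissue macrophage genes tested, 12 were called higher and 1 lower (median 2.15), and the sum over all 20 genes of the list went from 679 to 835 CPM up to 842 to 1309 CPM. Of 7 megakaryocyte and platelet genes tested, 4 were called higher and 0 lower (median 1.10), and 2 were called higher without vehicle mouse 3. The 4 were Thbs1, the protease-activated receptor F2rl2 (3.01), the platelet integrin subunit Itga2b (1.80) and Plek, pleckstrin (1.10). Pf4, platelet factor 4, and Vwf, von Willebrand factor, both named after their values were seen, were at -0.31 and 0.06 and were not called. The sum of all 18 genes of that list was 133 to 176 CPM in vehicle and 1174 to 2510 CPM in treated mice, of which Thbs1 made up 60.1 to 85.8 and 1046 to 2310 CPM. The part that other cells among the sorted GFP-positive cells had in these changes was not tested.

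Monocyte genes went mostly the other way: 11 of 25 were called lower and 3 higher, with a median of -0.85, and 6 were called lower with the term for library numbers. The sum of this list overlapped between the groups, at 3468 to 3775 and 3021 to 4037 CPM, since Itgam, the integrin shared by monocytes and neutrophils, rose from 669 to 718.5 CPM up to 979 to 1469 CPM (0.80 ± 0.15). Erythroid genes had 0 calls among 7 tested, and B cell and T cell lists had 1 tested gene each, with 0 calls; their sums stayed at 19.8 to 53.5 and 17.8 to 26.6 CPM. Of 10 stromal and endothelial genes tested, 1 was called higher and 2 lower, and the sums overlapped. Fabp4 rose by 2.43, Kitl fell by 1.54, and the endothelial receptor Tek was called at -2.45 from low levels with overlapping groups (adjusted p = 0.0498), a call lost without vehicle mouse 2 or 3 or treated mouse 1, 2 or 3. In bulk samples, a change in the share of a cell type and a change of RNA per cell cannot be told apart.

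**Figure D2:**
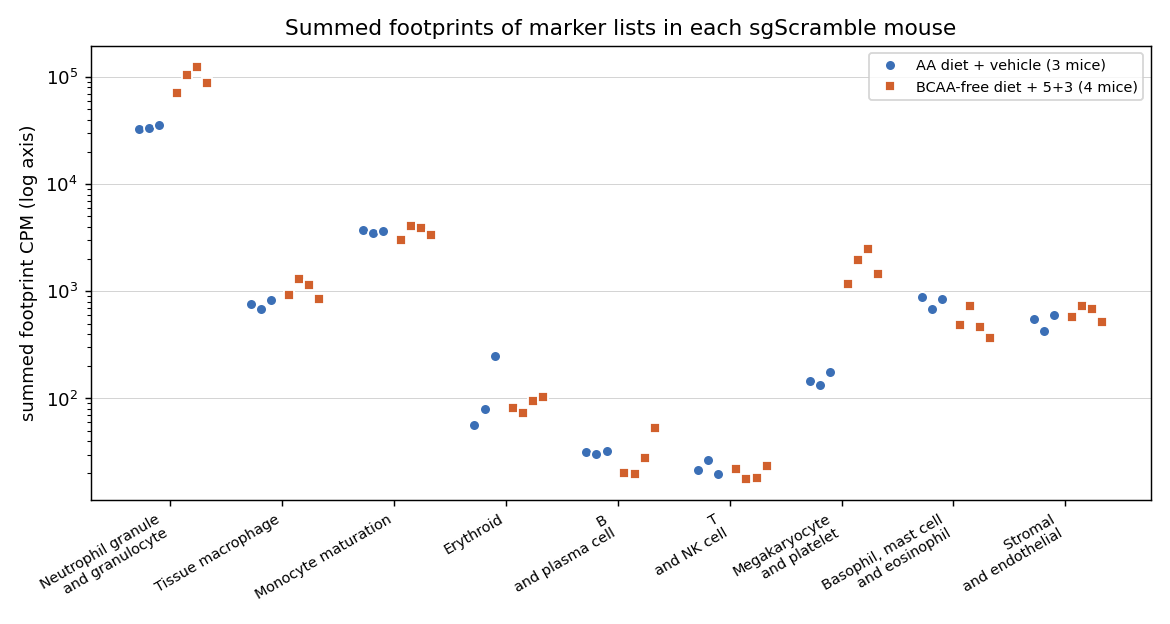
Summed footprint CPM (log axis) of 9 marker lists in each sgScramble mouse, blue circles for 3 vehicle and orange squares for 4 treated mice. The neutrophil sum lies between 32500 and 35380 CPM in vehicle and between 71680 and 125300 CPM in treated mice, whereas the monocyte, erythroid, B cell and T cell sums overlap.

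By absolute amount, stefin A and calprotectin genes gained most. The 10 genes with the largest gain in CPM included BC100530, Stfa1, BC117090, Stfa2, Stfa2l1 and Stfa3, all members of the stefin A family of cysteine protease inhibitors on chromosome 16, which share sequence, so that the split of reads among them is uncertain. Stfa3 went from 598.5, 568 and 623 CPM to 1872, 3148, 3496 and 2266 CPM (2.18 ± 0.25, adjusted p = 0.00050). S100a8 and S100a9, the subunits of calprotectin, rose by 1.57 and 1.47, and both lost the call without vehicle mouse 2 or 3. Mmp9, a gelatinase of neutrophil granules, rose by 2.12, and Thbs1 completes the 10.

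The 10 genes with the largest loss in CPM were all histone H2B genes of the Hist1 cluster on chromosome 13. Replication-dependent histone mRNAs are made in S phase and encode the core of new chromatin. Hist1h2bp, for example, was at 4543, 5582 and 4257 CPM in vehicle and at 2989, 2978, 3209 and 2977 CPM in treated mice (-0.66 ± 0.10, adjusted p = 0.00080). The copies are nearly identical and their levels nearly equal (mean 4265 to 5301 CPM in vehicle for these 10), so their reads cannot be assigned to single genes. Their coding sequences are rich in GC (59.4% to 64.0%). All 10 kept their call under the 19 alternatives, a correction for GC content among them, where the weakest value was -0.33, for Hist1h2be. How far the fall of histone genes follows their GC content was not tested. The whole family, looked at after these values were seen, had 58 of 66 genes called lower and 0 called higher, with a median of -0.45. Its sum was 216400, 261000 and 201500 CPM in vehicle and 163200, 161600, 164900 and 158300 CPM in treated mice. How reads matching several copies were counted is not given. The 66 genes are therefore not separate measurements, and the sum may hold the same read more than once. In sgOgfod1, 0 of the 66 were called lower and the median was -0.03. In the RNA of the same sgScramble mice, 3 of 49 were called lower, with a median of -0.15. Few reads of these genes were counted in the Smart-seq2 RNA libraries, which need not mean that their mRNA was low. Of the 10 H2B genes, 7 were tested in the RNA, at means from 0.18 CPM for Hist1h2bp to 23.95 CPM for Hist1h2bc in vehicle mice. How well that RNA method captures histone mRNAs was not tested. With so few RNA counts, the RNA could show little about a change in these mRNAs.

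Many genes of the cytosolic translation apparatus were called higher, by modest amounts. Of 82 cytosolic ribosomal protein genes, 51 were called higher and 0 lower, against 9.23% higher among all genes. All 82 had a positive log2 fold change, from 0.04 to 0.90, with a median of 0.37, and 38 were called higher with the scale set by all genes. The count was 23 without vehicle mouse 2 and 41 to 47 with any other mouse left out. Rpl35, of the large subunit, went from 356, 376 and 409 CPM to 662, 637.5, 585 and 715 CPM (0.77 ± 0.11, adjusted p = 0.00040). Rps24, of the small subunit, went from 409, 467 and 469 CPM to 675, 676, 671 and 749.8 CPM (0.63 ± 0.10). Summed over the list, vehicle mice had 28870, 33920 and 34360 CPM and treated mice 43800, 41550, 40130 and 43070 CPM.

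Ribosomal protein genes have many processed pseudogenes of similar sequence, and how reads matching several loci were counted is not given in the sources used here. Of 255 pseudogenes with a ribosomal protein name, 99 were called higher and 0 lower (median 0.32), while of all 5595 pseudogenes tested 980 were called higher and 94 lower (median 0.19). The part of shared reads in the rise of the parent genes was not tested.

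Translation initiation factors behaved likewise: 18 of 36 were called higher and 0 lower (median 0.33). Among them were subunits of eIF2, the factor that brings the initiator tRNA to the ribosome. Eif2s1 went from 212, 194 and 218 CPM to 289, 273, 316 and 365.5 CPM (0.58 ± 0.11), and Eif2s3x rose by 0.70. Of eIF3, the scaffold of the small subunit, Eif3e rose by 0.57 and Eif3a by 0.47. The count was 7 without vehicle mouse 3, and 9 with the term for library numbers. Among 16 elongation and termination factors 5 rose, with Eef1b2 at 0.42 and Gspt1, the release factor eRF3, at 0.44, and 1 fell: Eef2k, the kinase that inhibits elongation factor 2, at -0.47. That count of 5 came down to 0 to 3 when treated mouse 1 or 5 or any vehicle mouse was left out.

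Ribosome biogenesis genes had 12 of 46 called higher and 0 lower (median 0.25). Ncl, nucleolin, went from 1519, 1576 and 1607 CPM to 2743, 2696, 2353 and 2719 CPM (0.75 ± 0.11), and Npm1, nucleophosmin, rose by 0.63. Without vehicle mouse 2, 3 or 5 the count was 4, 3 or 5. Mitochondrial ribosomal proteins, by contrast, had 7 of 78 called higher and 2 lower, close to the share of all genes, and 4 higher without vehicle mouse 2 or 3. Of 23 aminoacyl-tRNA synthetases 3 were called higher and 0 lower, 13% called against 16.7% of all genes. The 3 were Farsb, Tars and Rars, at 0.38 to 0.48. The count was 0 without vehicle mouse 3 or 5, and 1 without vehicle mouse 2 or treated mouse 5, with the scale set by all genes or with the term for library numbers.

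In the RNA of the same mice these groups showed few calls. Of 16089 protein-coding genes tested in the RNA, 1802 (11.2%) were called, 894 higher and 908 lower. Among the ribosomal protein genes 1 of 82 was called higher in the RNA (median 0.11), among the initiation factors 1 of 36 (median 0.16) and among the biogenesis genes 3 of 46 (median 0.13). The biological coefficient of variation, 1 value for each assay over the genes fitted, was 0.53 in RNA against 0.16 for footprints. Standard errors of single genes could be closer: 0.10 in RNA and 0.13 in footprints for Tars, 0.13 and 0.11 for Rars. How far spread accounts for the fewer RNA calls in these groups was not tested.

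**Figure D3:**
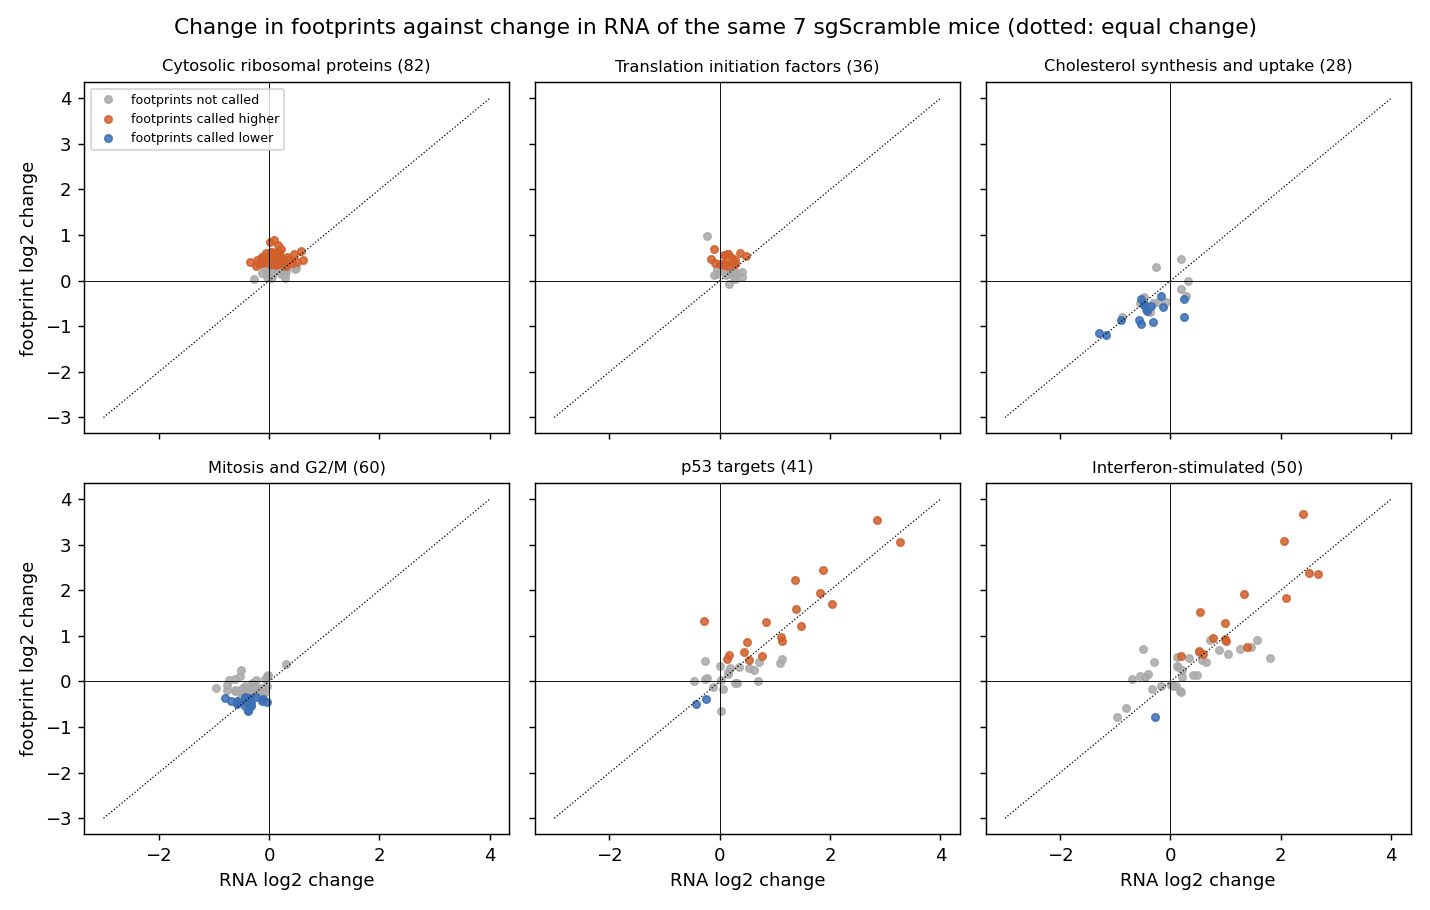
Log2 fold change of footprints (vertical) against that of RNA (horizontal) in the same 7 sgScramble mice for the members of 6 gene lists, 1 point per gene, coloured by the footprint call; the dotted line marks equal change. Ribosomal protein genes, and all initiation factors but Eif2b4, sit above 0 on the footprint axis and near 0 on the RNA axis, whereas p53 and interferon genes run along the dotted line.

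Among the known targets of Atf4 and of the amino acid response, a small number of genes were called. Slc7a11, the cystine-glutamate exchanger and a target of Atf4 (chr3:49892526-50443614), rose from 2.16, 2.96 and 5.47 CPM to 20.0, 29.2, 33.6 and 22.3 CPM (2.88 ± 0.28, adjusted p = 3.5e-05). Its partner subunit Slc3a2 rose from 69.6 to 76.8 CPM up to 98.2 to 119.5 CPM (0.63 ± 0.15, adjusted p = 0.011). Atf4 itself went from 32.1, 34.4 and 34.4 CPM to 38.1, 55.1, 46.0 and 65.2 CPM (0.60 ± 0.17, adjusted p = 0.022), while its RNA changed by 0.24 (adjusted p = 0.549). The Atf4 call was lost without treated mouse 2 or 5 or any vehicle mouse. Over the whole list of Atf4 and amino acid response targets, 5 of 28 were called higher and 1 lower (median 0.27), and the count of 5 became 1 without vehicle mouse 3, 2 without vehicle mouse 2 or treated mouse 2, and 3 without vehicle mouse 5 or treated mouse 3. Asparagine synthetase, Asns, named here after its values were seen as a standard Atf4 target, was at 63.6, 55.5 and 53.6 CPM in vehicle and at 110.2, 56.0, 60.1 and 108.3 CPM in treated mice (0.54 ± 0.33, adjusted p = 0.306). Treated mice 1 and 5 stood above the vehicle range for Asns and treated mice 2 and 3 within it.

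Of 21 amino acid transporters 3 rose and 1 fell, 19% called against 16.7% of all genes. Without vehicle mouse 3, 1 was called higher. Slc6a6, the taurine transporter, rose by 0.54, and Slc38a9, the lysosomal arginine sensor of mTORC1, fell from 13.7 to 15.1 CPM down to 8.85 to 9.59 CPM (-0.63 ± 0.15, adjusted p = 0.011). Genes of BCAA breakdown had 3 of 24 called lower and 1 higher, 16.7% called, the same share as among all genes. The count called lower was 1 without treated mouse 1 or 3, without vehicle mouse 2 or 3, or with the term for library numbers. Bckdha, a subunit of the dehydrogenase that commits branched-chain ketoacids to breakdown, fell from 79.7, 103.6 and 94.2 CPM to 62.4, 61.6, 47.7 and 37.4 CPM (-0.82 ± 0.15, adjusted p = 0.0022), and Ppm1k, the phosphatase that activates that enzyme, fell by 1.06 (adjusted p = 0.040), a call lost without vehicle mouse 2 or 3 or treated mouse 1, 2 or 3. Of 43 genes of mTORC1 and amino acid sensing 3 rose and 2 fell, which is below the share of all genes. Flcn and Rptor fell by 0.55 and 0.49, and Sesn2, a leucine-binding inhibitor of mTORC1 and a p53 target, rose by 0.97 (adjusted p = 0.041). The Sesn2 and Rptor calls were both lost without any vehicle mouse and without treated mouse 2 or 3, that of Sesn2 also without treated mouse 1. The list had 0 called higher without vehicle mouse 3 and 1 without vehicle mouse 2 or 5, without treated mouse 1 or 3, or with the scale set by all genes. Among the 11 eIF2 kinases, phosphatases and their regulators, edgeR called 0, and the 4 with the smallest p had adjusted p of 0.101 to 0.297.

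Targets of p53 were called higher more often than the 9.23% of all genes. Of 41 tested, 18 were called higher and 2 lower, with a median of 0.43. The count was 11 without vehicle mouse 3 and 12 to 16 with any other mouse left out. Phlda3, an inhibitor of Akt, went from 1.26, 0.683 and 0.586 CPM to 9.27, 5.40, 8.46 and 6.09 CPM (3.05 ± 0.37, adjusted p = 0.00018). Ccng1, cyclin G1, went from 20.7, 18.9 and 24.0 CPM to 40.5, 56.7, 63.2 and 49.3 CPM (1.30 ± 0.15), and Zmat3 and Trp53inp1 rose by 2.45 and 1.59. Cdkn1a, the CDK inhibitor p21, went from 42.4, 35.7 and 24.0 CPM to 67.4, 81.2, 105.8 and 65.4 CPM (1.23 ± 0.23, adjusted p = 0.0037). The groups did not overlap in any of these 5 genes, which was also so for 1021 of the 1051 genes called higher. Of all 11386 genes tested, 3786 did not overlap. The RNA of the list moved as much, with 18 of 41 called higher and a median of 0.43.

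Of the BCL2 family, 4 of 17 rose and 1 fell; 1 or 2 were called higher when any mouse but treated mouse 1 was left out. Bax, which permeabilizes the mitochondrial membrane, went from 35.6 to 44.4 CPM up to 51.4 to 66.6 CPM (0.57 ± 0.13, adjusted p = 0.0078), and Bcl2, which restrains it, fell from 7.62 to 11.9 CPM down to 3.16 to 4.72 CPM (-1.17 ± 0.27, adjusted p = 0.0084). Bcl2l11, which encodes Bim, rose by 0.86, and Pmaip1 by 0.49 with an adjusted p of 0.047. The Bcl2 call was lost without vehicle mouse 2, and that of Pmaip1 without any mouse but treated mouse 1.

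Genes that handle the 2 drugs moved in both directions, 6 of 27 higher and 4 lower. The 6 became 2 without any 1 vehicle mouse, and 3 without treated mouse 1 or 5, with the scale set by all genes or with the term for library numbers; the 4 became 2 without vehicle mouse 3. Abcb1b and Abcb1a, the mouse copies of the P-glycoprotein pump that exports doxorubicin, both fell. Abcb1b went from 8.29, 9.33 and 8.02 CPM to 1.26, 0.675, 0.846 and 1.32 CPM (-3.02 ± 0.32, adjusted p = 5.5e-05), and Abcb1a from 3.43, 2.96 and 2.35 CPM to 0.632, 0.225, 0.564 and 0.530 CPM (-2.53 ± 0.54, adjusted p = 0.0052). The copies share sequence, so their split is uncertain. Neither overlapped between the groups, which was also so for 838 of the 856 genes called lower. Rrm2, the ribonucleotide reductase subunit that supplies the deoxynucleotides with which cytarabine competes, rose from 229 to 247.5 CPM up to 318 to 360 CPM (0.51 ± 0.10), and Nt5c3, a pyrimidine nucleotidase, rose by 0.85.

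Of 60 genes of mitosis and the G2 to M step, 19 were called lower and 0 higher (median -0.23), against 7.52% lower among all genes. With the scale set by all genes, 27 were called lower. The count was 11 without treated mouse 3, 9 without vehicle mouse 2, 8 without vehicle mouse 3, and 9 with the term for library numbers. Nusap1, a spindle protein, went from 153.6, 142.3 and 142.5 CPM to 102.4, 106.6, 92.8 and 111.8 CPM (-0.50 ± 0.09, adjusted p = 0.0021), and Prc1, which bundles microtubules at the midzone, from 131.2 to 139.5 CPM down to 92.3 to 102.8 CPM (-0.46 ± 0.09). Kif18b and Ncapd2, a kinesin and a condensin subunit, fell by 0.65 and 0.55. In the RNA 24 of the 60 were called lower. In sgOgfod1 footprints the median of the list was 0.15, and the genotype by treatment interaction called none of these genes.

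DNA replication genes had 4 of 52 higher and 4 lower, which is near the share of all genes. The split varied: it was 2 and 7 with the scale set by all genes, 2 and 6 without treated mouse 1, 4 and 0 with the term for library numbers, 1 and 1 without vehicle mouse 2 or 3, and 2 higher without vehicle mouse 5 or treated mouse 5. The repair list had 4 of 42 lower and 1 higher, and 2 lower without vehicle mouse 3 or with that term. Its share called, 11.9%, was below the 16.7% of all genes. Parp1, the sensor of DNA breaks, fell from 144 to 167.5 CPM down to 85.8 to 111.0 CPM (-0.70 ± 0.12, adjusted p = 0.0010), and Xrcc1, its partner in single-strand break repair, by 0.83. Atr, the kinase of the replication checkpoint, rose by 0.60. Ccnd2, cyclin D2, rose from 3.79 to 6.15 CPM up to 13.5 to 17.7 CPM (1.57 ± 0.41, adjusted p = 0.021), a call that was lost without any of the 3 vehicle mice.

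Many cell cycle promoters carry CCAAT boxes and a shorter element, the cell cycle homology region, near the start site. In the 250 bases before the start of each gene (RefSeq, GRCm38.p6, both strands), TTTGAA or TTCGAA was found in 21 of the 52 mitotic genes with an entry (40.4%), against 14.9% of 8849 tested genes, and CCAAT in 38 of 52 (73.1%), against 41.7%. Among the mitotic genes called lower, 8 of 17 held the first motif and 14 of 17 the second; among those not called the numbers were 13 of 35 and 24 of 35. A gene with several listed starts counted once if any window matched. The matches nearest the start in 3 genes called lower are shown to let the element be seen in its setting, with the matched letters in capitals, 5′ to 3′ on the strand of the gene: Prc1 at chr7:80294431-80294466 (plus strand), Ube2c at chr2:164769885-164769920 (plus strand, match on the opposite strand) and Kif11 at chr19:37376348-37376381 (plus strand, match on the opposite strand).
Prc1: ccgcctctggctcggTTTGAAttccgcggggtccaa
Ube2c: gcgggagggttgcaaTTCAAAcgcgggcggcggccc
Kif11: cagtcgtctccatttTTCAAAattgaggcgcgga

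Cholesterol synthesis and uptake was the list with the largest share called lower, 16 of 28, with 0 higher and a median of -0.52. These enzymes convert acetyl-CoA to cholesterol under the control of the factor Srebf2, which is active when membrane sterol is low. Srebf2 itself went from 72.1, 63.5 and 65.1 CPM to 35.2, 36.0, 29.6 and 38.7 CPM (-0.94 ± 0.12, adjusted p = 0.00026). Fdps, farnesyl diphosphate synthase, went from 233.6, 191.9 and 186.3 CPM to 107.4, 106.6, 115.1 and 123.4 CPM (-0.85 ± 0.11, adjusted p = 0.00019). Cyp51, lanosterol demethylase, fell by 1.18, and Acat2, which feeds the first step, by 0.66. Summed over the list, vehicle mice had 1144, 940.2 and 935.4 CPM and treated mice 711.2, 644.9, 633.3 and 697.9 CPM. The count was 7 to 10 without treated mouse 2 or 3 or any vehicle mouse, and 7 with the term for library numbers.

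In the RNA, 9 of the 28 were called lower (median -0.36). In sgOgfod1 the median of the list was -0.06, and Fdps, Srebf2, Cyp51 and Acat2 had log2 fold changes of -0.23, -0.20, -0.32 and -0.22 there, none of them called; the interaction called none of them. A sterol element, TCACNCCAC, was found within 250 bases before the start in 1 of 21 list genes with an entry (4.76%), against 1.25% of tested genes. The gene was Hmgcs1, which makes the precursor of mevalonate and fell by 0.51 (adjusted p = 0.037, groups overlapping). Its element lies at chr13:119690199-119690237 on the plus strand and is shown with the motif in capitals.
Hmgcs1: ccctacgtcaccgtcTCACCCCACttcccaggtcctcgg

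Other lipid and sugar genes had fewer calls. Fads1, a fatty acid desaturase, fell from 9.77 to 12.8 CPM down to 4.21 to 6.30 CPM (-1.08 ± 0.23). Of 29 glycolytic and pentose phosphate genes 5 rose and 3 fell. With the scale set by all genes 2 were called higher and 4 lower; the 5 became 2 without treated mouse 3 or any vehicle mouse and 3 without treated mouse 2 or 5, and the 3 became 1 without vehicle mouse 2. Slc2a3, the high-affinity glucose transporter, rose from 11.7, 14.3 and 14.1 CPM to 36.0, 56.4, 45.1 and 41.3 CPM (1.74 ± 0.35), Hk1 rose by 0.45, and Pfkl, the liver-type phosphofructokinase, fell from 98.8 to 119.0 CPM down to 48.1 to 61.5 CPM (-0.98 ± 0.12, adjusted p = 0.00013).

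Nuclear genes of oxidative phosphorylation had 16 of 75 called higher and 0 lower (median 0.16). Ndufc1, of complex I, went from 27.0, 28.9 and 26.8 CPM to 40.0, 51.5, 54.7 and 50.6 CPM (0.83 ± 0.12), and Uqcrb, of complex III, rose by 0.75. The count was 10 without treated mouse 2, 8 without vehicle mouse 2 or 5 and 6 without vehicle mouse 3. The 13 proteins encoded in mitochondrial DNA had 0 calls in the footprints, with a median of 0.14; the smallest of their adjusted p was 0.473. In the RNA, 6 of 11 were called lower, with a median of -0.64.

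Iron genes had 7 of 15 called higher and 0 lower. Fth1, the ferritin heavy chain, whose translation is blocked when iron is scarce, went from 343, 286 and 342 CPM to 737, 1053, 926 and 671 CPM (1.39 ± 0.16, adjusted p = 0.00019), with an RNA change of 0.72. Hmox1, which frees iron from heme, rose by 1.55, Fbxl5, which removes iron regulatory proteins, by 0.86, and Tfrc, the transferrin receptor, by 0.61. The count was 4 without vehicle mouse 2 or 5.

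Proteasome genes had 18 of 41 called higher and 2 lower (median 0.27). Psmd1, of the regulatory particle, went from 162.4, 173.7 and 166.7 CPM to 262.5, 236.3, 232.7 and 257.7 CPM (0.56 ± 0.10), and Psmc5 and Psmd14 rose by 0.57 and 0.50. Of the 2 that fell, Psmb9 (-0.65) and Psmb10 (-0.52, named because it completes the pair) are subunits of the interferon-inducible immunoproteasome. The count was 8 without vehicle mouse 3, and 12 with the scale set by all genes. Lysosomal genes had 3 of 35 lower, among them Hexa, a hexosaminidase, at -0.69, and 1 higher; with the scale set by all genes 6 were called lower. The unfolded protein response had 2 of 28 lower, among them Ern1, the sensor Ire1, from 28.4 to 33.2 CPM down to 14.8 to 16.6 CPM (-0.997 ± 0.14, adjusted p = 0.00037), and 1 higher. The shares called among lysosomal and unfolded protein response genes, 11.4% and 10.7%, were below the 16.7% of all genes.

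**Figure D4:**
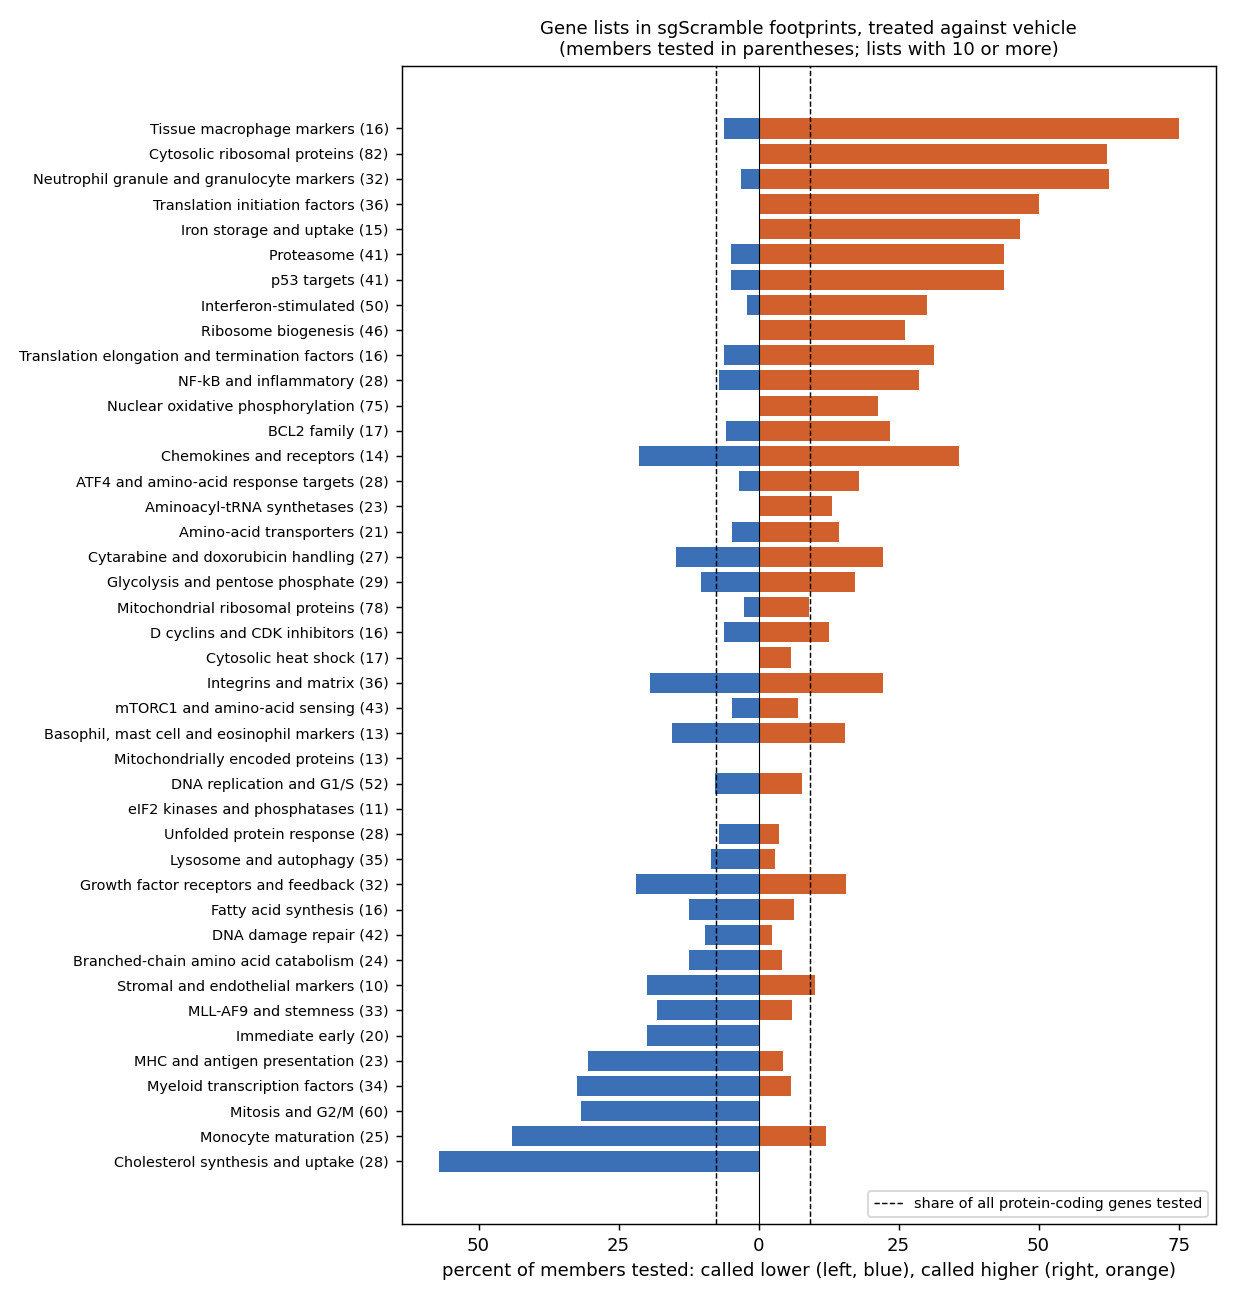
Share of the tested members of each gene list called lower (blue, to the left) or higher (orange, to the right) in sgScramble footprints, for lists with at least 10 members tested; dashed lines mark the shares among all protein-coding genes, 7.52% lower and 9.23% higher. Ribosomal proteins and initiation factors stand on the right with no member called lower, and cholesterol and mitotic genes on the left with none called higher.

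Myeloid transcription factors had 11 of 34 called lower and 2 higher, although their median was -0.06, and 7 lower with the term for library numbers. Besides Irf8, Runx1, required for blood cell formation, went from 29.9, 36.2 and 26.4 CPM to 16.9, 15.1, 13.8 and 16.4 CPM (-0.98 ± 0.15, adjusted p = 0.00062). Klf4, which promotes monocytes, fell from 3.61, 5.69 and 4.69 CPM to 0, 0.899, 0.564 and 0.530 CPM (-3.19 ± 0.61). Tcf7l2, of the Wnt pathway, rose by 1.46. Cebpa, the factor of granulocyte commitment, fell by 0.69 (adjusted p = 0.0011), but in a fit of protein-coding genes alone with each library corrected for GC content the value was -0.30 (adjusted p = 0.093).

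Among 33 genes of the MLL-AF9 program and of stemness, 6 fell and 2 rose. Cd93, a surface protein of leukemia stem cells in this disease, fell from 227.1, 199.4 and 230.3 CPM to 73.7, 80.1, 90.6 and 62.5 CPM (-1.51 ± 0.13, adjusted p = 2.2e-05). Itgb3, an integrin subunit, fell by 1.44 and Men1, the menin cofactor of the fusion protein, by 0.69, while Prom1 rose from 7.21 to 10.7 CPM up to 15.1 to 28.1 CPM (1.19 ± 0.22).

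Growth factor receptors and their feedback genes had 7 of 32 lower and 5 higher. The 5 became 1 without any 1 vehicle mouse and 2 without treated mouse 2, 3 or 5, the 7 became 4 without vehicle mouse 3 or 5 or treated mouse 3, and the scale set by all genes gave 10 lower and 2 higher. Kit, the receptor of stem cell factor, went from 132.5, 140.4 and 169.9 CPM to 79.2, 51.3, 40.9 and 36.8 CPM (-1.49 ± 0.27, adjusted p = 0.0055). Il3ra and Il6ra fell by 1.01 and 1.11, and Il1r2, the decoy receptor of interleukin 1 found on neutrophils, rose by 2.34. Of the chemokine receptors, Cxcr4, which holds cells in the marrow, fell from 547.5, 567.4 and 632.4 CPM to 341.5, 447.5, 400.3 and 302.5 CPM (-0.64 ± 0.12), Cx3cr1 fell by 2.29, and Cxcr2, which draws neutrophils out of the marrow, rose from 4.10 to 6.06 CPM up to 14.1 to 35.0 CPM (2.30 ± 0.42). Timp2, an inhibitor of matrix proteases, rose by 1.35.

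Interferon-stimulated genes had 15 of 50 called higher and 1 lower (median 0.52), and 12 of 50 were called higher in the RNA. Samd9l, an antiviral protein, went from 37.13, 28.22 and 34.01 CPM to 63.0, 75.1, 88.3 and 99.6 CPM (1.29 ± 0.15, adjusted p = 0.00013). Ddx58, the RNA sensor RIG-I, went from 18.0 to 23.7 CPM up to 37.8 to 44.5 CPM (0.95 ± 0.15). Rtp4 rose by 2.36 and Ifit3 by 3.66, both from low levels: Ifit3 was at 0.180, 0.683 and 0 CPM in vehicle and at 3.16, 4.72, 3.39 and 3.44 CPM in treated mice. The count was 9 without treated mouse 2 or vehicle mouse 2 or 5. The gene called lower was Stat2, a subunit of the factor that carries the interferon signal (-0.77, adjusted p = 0.0047). In sgOgfod1 the median of the list was -0.02, and the interaction called none of its members.

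The interferon response element was searched for as 2 copies of GAAA with any 2 bases between them. It was found within 250 bases before the start in 22 of 39 list genes with an entry (56.4%), against 3.35% of 8849 tested genes. Of the members called higher 8 of 11 held it, and of those not called 13 of 27. A match for 5 of the genes called higher is shown with the element in capitals, on the strand of the gene: Ifit3 (chr19:34583358-34583397, plus), Rsad2 (chr12:26456548-26456587, minus), Oas3 (chr5:120777710-120777749, minus), Irgm1 (chr11:48871426-48871465, minus) and Irgm2 (chr11:58214898-58214937, plus). In Ifit3 and Rsad2 the match is on the opposite strand.
Ifit3: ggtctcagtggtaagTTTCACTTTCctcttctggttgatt
Rsad2: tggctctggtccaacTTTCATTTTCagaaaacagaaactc
Oas3: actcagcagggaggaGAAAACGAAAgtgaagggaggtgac
Irgm1: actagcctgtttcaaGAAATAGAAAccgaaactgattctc
Irgm2: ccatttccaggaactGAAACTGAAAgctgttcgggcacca
Ifit3b, called higher at 3.08, carries the same stretch as Ifit3, and the copies can share reads. Rsad2, an antiviral radical enzyme, rose by 1.83, Oas3, which makes the activator of RNase L, by 0.88, and the GTPases Irgm1 and Irgm2 by 0.56 and 0.67.

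Inflammatory genes had 8 of 28 higher and 2 lower. The 8 became 4 without vehicle mouse 2 or treated mouse 5, 5 without vehicle mouse 3 or treated mouse 2 or 3 or with the scale set by all genes, and 3 with the term for library numbers. Il1rn, the interleukin 1 receptor antagonist, went from 11.9, 11.2 and 16.2 CPM to 56.7, 92.0, 86.0 and 63.8 CPM (2.50 ± 0.41, adjusted p = 0.0041), and Clec4e, a receptor for cord factor, rose by 0.94. Antigen presentation went down more often than up, with 7 of 23 lower and 1 higher (median -0.20), with 4 lower without vehicle mouse 3 and 3 with that term. Tapbp, which loads peptide on MHC class I, fell from 158 to 207 CPM down to 94.8 to 136.0 CPM (-0.66 ± 0.13, adjusted p = 0.0032), and H2-DMb1, of the class II loading factor, fell by 0.68. Of the immediate early genes 4 of 20 fell and 0 rose: Klf4, Egr1, Fos and Nr4a1, the last 3 by 1.32, 1.15 and 1.03. Without vehicle mouse 5 the calls of Fos and Nr4a1 were lost.

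The same treatment was given to mice with sgOgfod1 leukemia, which share no library with this comparison. There 930 genes (8.17%) were called, in a contrast of 2 treated against 3 vehicle mice. Of the 1051 genes higher in sgScramble, 958 (91.2%) had a positive value in sgOgfod1, 298 were called higher there and 0 lower, and the median was 0.36 against 0.60. Of the 856 lower genes, 770 (90.0%) had a negative value, 254 were called lower and 0 higher. The interaction of genotype and treatment called 3 genes (0.0263%), with 1051 at an unadjusted p under 0.05, and DESeq2 called 21. For the largest changes the values stood side by side: Cd38 was at 4.94 in sgScramble and 3.51 in sgOgfod1, Thbs1 at 4.50 and 2.48, Slc7a11 at 2.88 and 3.16, Itga1 at -4.37 and -4.04, and Irf8 at -3.26 and -4.02. None of these 5 differences was called.

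Footprint and RNA changes of the same mice had a Spearman correlation of 0.51 over 11099 genes; genes are not replicates, and both kinds of library share their mice and lysates. Of the genes with higher footprints, 86.7% of the 1024 tested in RNA also had a positive RNA change, 363 were called higher in RNA and 6 lower; of those with lower footprints, 83.8% of 825 had a negative RNA change, 313 were called lower and 1 higher. Modelled against the RNA of each mouse, 555 of 11099 genes (5.00%) changed in footprints relative to RNA, 287 upward and 268 downward. That count rests on few mice: it was 55 without vehicle mouse 2, 102 without vehicle mouse 3, 152 without vehicle mouse 5, 218 without treated mouse 1 and 183 without treated mouse 2. With the scale set by all genes it was 175 upward and 467 downward.

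Genes with the largest fall relative to RNA included Dvl2, a transducer of Wnt signals, whose footprints went from 16.6, 17.8 and 14.9 CPM to 7.37, 7.20, 6.21 and 5.03 CPM (-1.33 ± 0.17, adjusted p = 0.00019) with an RNA change of 0.01, and Ptov1, from 10.6, 10.9 and 11.9 CPM to 2.95, 4.72, 3.67 and 3.44 CPM (-1.59) with an RNA change of -0.02. H2-Q10, a secreted MHC class I protein, fell by 3.02 relative to RNA, with RNA higher by 3.13 and footprints at 0.08 (adjusted p = 0.751). How reads matching several MHC class I genes were counted is not given, so this difference between the assays may not be one of translation. In the other direction, Fn1, fibronectin, fell less in footprints (-1.55) than in RNA (-3.54). Among the 15 largest falls in footprints, Arhgef33 and Mex3a had RNA changes of -0.10 ± 1.22 and 0.05 ± 0.44. Their RNA was too low to measure a change well. Arhgef33 had mean RNA levels of 0.16 CPM in vehicle and 0.15 CPM in treated mice, and Mex3a 0.84 and 0.87 CPM. By edgeR, Arhgef33 was not called relative to RNA (adjusted p = 0.090), and Mex3a was (adjusted p = 0.029). Mex3a, an RNA-binding protein, went from 7.57, 24.1 and 18.8 CPM to 5.06, 2.02, 3.10 and 2.91 CPM in footprints.

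The change in footprints followed the base composition of the coding sequence. Over 10 classes of equal size by GC content, the median log2 fold change went from 0.13 in the lowest class (32.3% to 43.8% GC) to -0.24 in the highest (60.2% to 76.8% GC), and the share called higher from 14.5% to 3.38%, the share called lower from 3.29% to 15.9%. In sgOgfod1 the medians went from 0.10 to -0.11. In the RNA of the sgScramble mice they went the other way, from -0.17 to 0.16, so that the change relative to RNA spanned 0.29 to -0.38. Across genes, Spearman's rho of the change with GC content was -0.25 in footprints, 0.26 in RNA and -0.55 for footprints relative to RNA.

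Single libraries carried this slope to different degrees. Each library's deviation from the mean of the 12 footprint libraries had a rho with GC content of 0.19, 0.42 and 0.18 in vehicle mice 2, 3 and 5 and of -0.05, 0.01, -0.05 and -0.25 in treated mice 1, 2, 3 and 5; the corresponding RNA libraries had -0.28, 0.08 and -0.26 in vehicle and 0.52, 0.29, -0.05 and 0.05 in treated mice. Fitted to protein-coding genes alone, the comparison had 1138 genes called higher and 948 lower. With a curve for GC content also removed from each library, an analysis added after these values were seen, 1045 were called higher and 756 lower, 1503 of them among the 1907 of the comparison over all gene types. Without and with the curve, these fits called 56 and 56 ribosomal proteins higher, 19 and 17 initiation factors higher, 17 and 15 cholesterol genes lower, and 21 and 27 mitotic genes lower.

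The summed content of the amino acids left out of the diet showed little slope, while leucine and isoleucine ran in opposite directions. Over 10 classes by the summed share of leucine, isoleucine and valine codons, the median footprint change was 0.01 in the lowest class (1.62% to 14.7%) and -0.04 in the highest (25.4% to 46.1%), with Spearman's rho at -0.02 across genes. For isoleucine the median went from -0.11 in the lowest class to 0.11 in the highest and the share called higher from 6.14% to 17.1% (rho 0.13). For leucine the median went from 0.06 to -0.10 and the share called higher from 12.9% to 5.52% (rho -0.11). For valine it was 0.01 in both classes (rho -0.02). How far these slopes share the one with GC content was not tested. These are counts per gene, and pausing of ribosomes at single codons cannot be read from them.

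**Figure D5:**
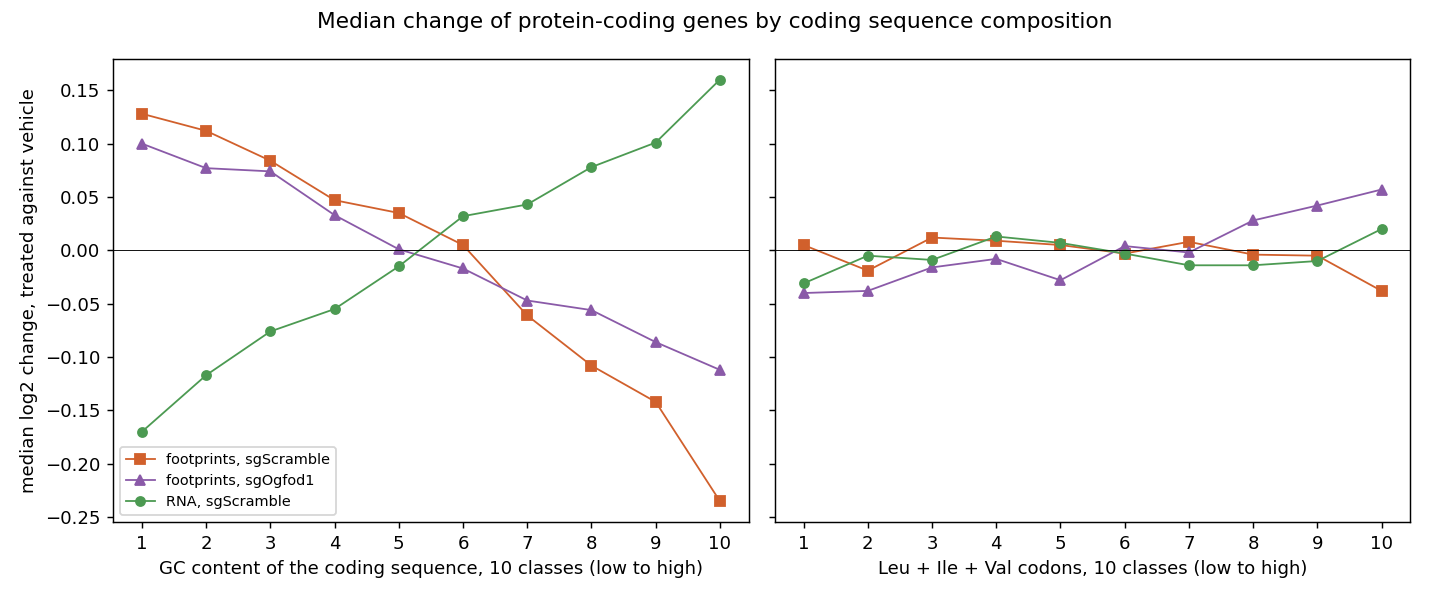
Median log2 fold change, treated against vehicle, of protein-coding genes in 10 classes of equal size by GC content of the coding sequence (left) and by the share of leucine, isoleucine and valine codons (right), for sgScramble footprints (squares), sgOgfod1 footprints (triangles) and sgScramble RNA (circles). By GC content the sgScramble footprint medians fall from 0.13 to -0.24 and the RNA medians rise from -0.17 to 0.16; by amino acid content the sgScramble footprint medians stay close to 0.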

How the data were processed

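The authors deposited raw counts per Ensembl gene for footprint and RNA libraries. The tools named per the submitters' processing notes were STAR, Bowtie2, featureCounts, SAMtools and cutadapt, with GRCm38/mm10; their versions, whether counting used strand and how reads mapping to several loci were handled are not given in the sources used here. Here, counts of the 12 footprint libraries were fitted with edgeR 4.0.16 (R 4.3.3; filterByExpr, library sizes and TMM from protein-coding genes, robust quasi-likelihood test, a mean for each of 4 groups), with Benjamini-Hochberg adjustment over all 18101 genes passing the filter; only protein-coding genes are reported. The RNA of the same 12 mice was fitted likewise, and footprints relative to RNA in a joint model with mouse as a block. On simulated counts with 200 changed genes among 10989, 90% of 2-fold and 100% of 4-fold changes were recovered, with 7 false calls. The changed genes were protein-coding and above 10 CPM. All groups started from the vehicle sgScramble means, and the spread of a gene followed its level alone. These rates therefore do not carry over to genes of lower level or to spread particular to a gene or library. DESeq2 1.42.0, limma 3.58.1 and other settings were alternatives. Gene types, coding sequences and their composition came from GENCODE (GRCm38), promoters from RefSeq. Named genes were called genes of at least 10 CPM with no overlap and the largest fold changes (15 a direction), those with the largest CPM differences (10), the 4 smallest p of each list, called interactions, and the largest changes relative to RNA (6); the text prints a part of these genes. Members and lists were chosen with earlier results of these data known. Each library is 1 mouse, but the labels describe 1 expansion of leukemia cells for all groups. Same-numbered vehicle and treated mice did not deviate together (correlations -0.08, -0.05 and 0.01), and no 2 libraries of a group agreed within counting noise (chi-square per degree of freedom at least 3.3).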

Additional observations from a re-analysis of the deposited data

Results flagged for a closer look

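Among 63 named genes checked, 2 had 1 treated sgScramble mouse far from the other 3; chance gives about 1 in 20. Fn1 was at 36.65 CPM in treated mouse 2 and at 11.6 to 13.1 CPM in the others. Hist1h2bp was at 3209 CPM in treated mouse 3 and at 2977 to 2989 CPM in the others.

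For 3 genes the change under treatment differed between sgOgfod1 and sgScramble by the interaction test of edgeR. Ahnak, a giant scaffold protein, stayed at 64.6 to 98.7 CPM in all 7 sgScramble mice but went from 305.5, 199.7 and 216.4 CPM to 31.2 and 25.1 CPM in sgOgfod1, a difference of -3.26 ± 0.29 (adjusted p = 0.00028). Hmgb1, a chromatin protein, rose in sgScramble from 152.9 to 195.5 CPM up to 278.4 to 397.1 CPM, whereas sgOgfod1 was at 339.6 to 437.9 CPM in vehicle and at 290.5 and 330.6 CPM in treated mice (difference -1.25 ± 0.21, adjusted p = 0.027). Of 10 Hmgb1 pseudogenes, 5 were called higher in sgScramble and 0 lower. Tgm1, transglutaminase 1, went from 20.2 to 21.6 CPM up to 23.61 to 30.99 CPM in sgScramble and from 15.3 to 16.9 CPM up to 50.3 and 47.5 CPM in sgOgfod1 (difference 1.20 ± 0.19, adjusted p = 0.023).

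Counts outside protein-coding genes also moved. Small nuclear RNA genes took 6.91% ± 1.71 (SD, n = 4) of all footprint counts in treated sgScramble mice, from 5.12% to 9.03%, against 2.44% ± 0.62 (SD, n = 3) in vehicle, from 1.90% to 3.13%. In sgOgfod1 they took 1.76% to 2.54% in vehicle and 3.67% and 1.40% in treated mice.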

How the results depend on the processing

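Of 195 named genes called in the sgScramble footprints, 136 kept their call under all 19 alternatives in which they were tested, and 0 reversed. Leaving out 1 mouse gave 496 to 957 genes called higher and 422 to 744 lower in sgScramble footprints, 277 to 385 and 279 to 463 in sgOgfod1, 0 to 23 and 1 to 44 for the interaction, 406 to 862 and 327 to 813 in RNA, and 31 to 316 and 24 to 354 relative to RNA; fewer mice were fitted each time. The term for library numbers from 17, which sets treated mice 1 and 2 against vehicle, gave 608 and 410. Only the 7 sgScramble libraries, fitted alone, gave 1281 and 1089. Scaling over all genes gave 307 higher in sgOgfod1, and 175 and 467 relative to RNA. All 23 RNA libraries gave 1486 higher in RNA. For the interaction DESeq2 gave 5 higher and 16 lower. With a replicate block, which the data do not bear out as a pairing, the interaction had 3 and 37 calls, and the sgScramble comparison 964 higher and 724 lower. Where no cause is named, the cause was not tested. Genes under about 3 CPM rest on few counts per library, and vehicle groups of 3 limit every count.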

Other observations

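The shortest coding sequences rose slightly more than the rest. In the class of 29 to 172 codons the median footprint change was 0.13, with 17.5% of genes called higher and 7.84% lower, and the RNA median was 0.08. In the class of 1175 codons and above it was 0.06, with an RNA median of -0.13. By mean level, the highest class had 23.8% of genes called higher and 9.66% lower, and the lowest class 5.62% and 3.43%. Genes with more counts are tested with more precision, so the shares of calls between level classes are not comparable in size of effect.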
